A study of Mus musculus with 16 samples.

Results

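The solute carrier (Slc) genes described here encode membrane proteins that move sugars, amino acids, organic and inorganic anions, metals, nucleotides and other solutes, and they were examined by family in kidneys lacking the peptide transporter Slc15a2 (Pept2). Members were the genes whose array probes named a single gene with a symbol of the form Slc, a family number and a letter. Left out by name were Slc15a2 and Slc35a5, together with Slc22a8, Slc22a2, Slc13a3, Slc7a7, Slc7a8 and Slc3a2. Of 187 such symbols on the arrays, 116 had a usable measurement in every animal, out of 6191 genes tested in all. Membership rested on the symbol, on these omissions by name and on having a value in both orientations of every mouse. No cut was made on the size or sign of a ratio, but members were chosen with earlier results of these data known.

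The study compared total RNA of the right kidney of 4 male Pept2 knockout mice (Pept2-/-) with 1 pool of RNA from the right kidneys of 5 wild-type mice (Pept2+/+), on two-colour spotted cDNA arrays. Animals were 88 (±2) days old and came from one heterozygous line on a mixed C57BL/6 and 129Sv background. Each knockout kidney was hybridised against the pool on 4 arrays, 2 with the knockout RNA in channel 1 and 2 with it in channel 2, so 16 arrays stood for 4 animals. All values below are log2 ratios of knockout over wild-type pool: a gene's value in a mouse is the mean of its 2 orientation means, and a gene's mean is taken over the 4 mice. The pool is 1 control sample, so no test against a ratio of 0 includes how much wild-type kidneys vary. The labels do not say which channel was divided by which. The likely direction was taken from Slc15a2, read as lower in knockout kidney at -2.51 (SE 0.10), and under the opposite reading every higher and lower would be exchanged. In RNA of a whole organ, fewer cells of a type and less RNA per cell cannot be told apart, and ratios carry no expression level by which one gene could be set against another or the tissue checked.

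The proximal tubule reclaims most filtered solutes through pairs of carriers. Apical carriers of the brush border, many of them coupled to sodium or protons, bring sugars, amino acids, phosphate and peptides into the cell, and basolateral carriers pass them on to the blood. Other carriers of the same cells secrete organic anions and move urate in both directions, while the SLC25 family exchanges metabolites across the inner mitochondrial membrane and the SLC30 and SLC39 families move zinc and related metals in opposite directions across membranes.

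No member of any family passed the adjusted threshold against the wild-type pool (adjusted p under 0.05, limma, Benjamini-Hochberg over 6191 genes), where 13 genes (0.210%) did over the whole array. That count depends on which carriers were left out by name, since 4 of the 8 omitted genes (Slc15a2, Slc22a8, Slc7a7 and Slc35a5) passed in the same fit. The smallest adjusted p of a member was 0.117, for Slc25a10. At an unadjusted p under 0.05 stood 19 members (16.4%), close to the 16.8% of all genes, 11 of them above the pool (9.48%, against 6.80% of all genes) and 8 below it (6.90%, against 10.0%). That count was 11 without mouse 4 and 15 without mouse 3, where the share of all genes also dropped, to 9.24% and 10.7%. With the 16 arrays as units and the mouse as a random block, which leans on technical replicates, 10 members passed the adjusted threshold, where 7.54% of all genes did.

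The ratios of the members lay in a narrow band around 0. Of the carriers left out by name, Slc15a2 (-2.51) and Slc22a8 (0.48) lay farther from 0 than any member. Member means ran from -0.37 (Slc17a3) to 0.27 (Slc25a10), with a median of 0.015 against -0.0038 over all genes, and 64 were positive and 52 negative. The 95% confidence interval stayed inside a log2 ratio of -0.5 to 0.5, or 1.41-fold either way, for 115 members (99.1%, against 98.5% of all genes), and Slc17a3 was the member outside it. With 4 mice the median standard error of a member was 0.054 and the median half-width of its interval 0.12.

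**Figure D1:**
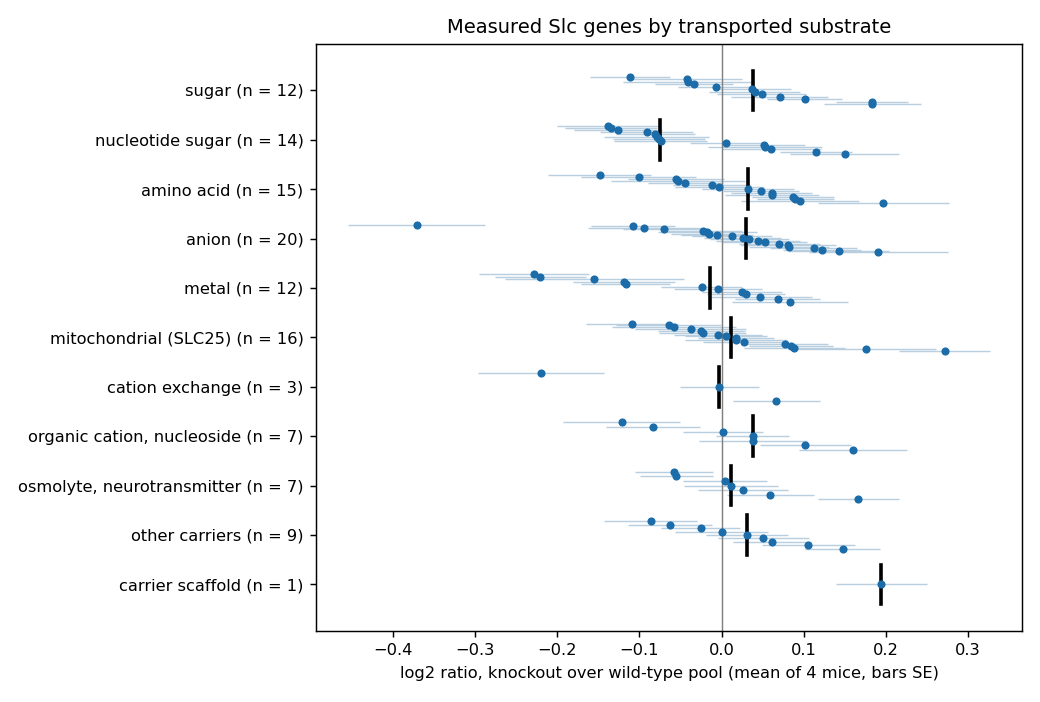
Mean log2 ratio of knockout over wild-type pool (x axis) of each of the 116 Slc genes, in a line for each class; each point is 1 gene averaged over 4 mice, with its standard error as a thin line and the class median as a black bar. Most points lie near 0, with Slc17a3 (-0.37) lowest and Slc25a10 (0.27) highest.

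All 4 knockout kidneys stood above the pool for 12 members (10.3%, against 11.4% of all genes) and below it for 6 (5.17%, against 14.3%). Requiring the same sign in both orientations as well left 7 members (6.03%, against 5.41%). The orientation means of a member differed by a median of 0.13 and had opposite signs for 56 members (48.3%, against 46.6% of all genes). The typical member ratio was therefore no larger than the gap between its orientations. Slc17a3 was the member whose ratio had the same sign on all 16 arrays, of 53 members with 16 values (1.89%, against 1.42% of the genes with 16 values).

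The sugar carriers, SLC2 and SLC5 with SLC45 and SLC50, had 12 measured members of 17 on the arrays and a median of 0.039, with mouse medians of 0.059, 0.041, 0.054 and 0.027. None passed the adjusted threshold, and 2 stood above and 1 below the pool at an unadjusted p under 0.05. Slc5a11, the sodium-coupled myo-inositol carrier SMIT2, had ratios of 0.15, 0.23, 0.17 and 0.18 in mice 1 to 4. All 4 mouse values lay above the pool and close together, but single arrays of mouse 4 ran from -0.043 to 0.53. The orientation means were 0.26 with knockout RNA in channel 1 and 0.10 in channel 2. The mean of Slc5a11 was 0.18 (SE 0.044, 1.13-fold, adjusted p = 0.148 in limma). Slc5a10, the sodium-coupled mannose and fructose carrier SGLT5, stood at 0.20, -0.00099, 0.20 and 0.33, near 0 in mouse 2 and above the pool in the others, with a mean of 0.18 (SE 0.059, adjusted p = 0.19).

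Slc2a12, the facilitative glucose carrier GLUT12, was also above the pool in every mouse, at 0.086, 0.18, 0.084 and 0.056 and a mean of 0.10 (SE 0.045). Slc2a5, the fructose carrier GLUT5, lay below it in every mouse, at -0.20, -0.14, -0.016 and -0.089. Its mean was -0.11 (SE 0.049, adjusted p = 0.297), so Slc2a5 and Slc5a10 lay on opposite sides of 0 and neither passed the threshold. Over the 5 SLC5 hexose and inositol carriers the median was 0.070, and over the 4 SLC2 carriers -0.037. Slc5a1 (SGLT1), the high-affinity glucose carrier of the late proximal tubule, had 0.17, 0.042, 0.081 and -0.10, on both sides of 0. The widest spread between mice was that of Slc2a8, an intracellular glucose carrier, with -0.38, 0.040, 0.061 and 0.11 and only mouse 1 below 0.

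The amino acid carriers had 15 measured members of 29 and a median of 0.032, with mouse medians of 0.036, -0.034, 0.092 and 0.018; mouse 2 was the kidney below 0. None passed the adjusted threshold, and 1 stood above and 1 below the pool at an unadjusted p under 0.05. Slc38a4, a sodium-coupled neutral amino acid carrier, had -0.0072, 0.16, 0.52 and 0.12, a spread carried mostly by mouse 3, and a mean of 0.20 (SE 0.079, adjusted p = 0.269 in limma). It had values on 10 arrays, and its orientation means were 0.028 in channel 1 and 0.37 in channel 2. Slc6a20b, a brush-border relative of the imino acid carriers, had 0.043, -0.22, -0.10 and -0.31, above 0 in mouse 1 and below it in the others, and a mean of -0.15 (SE 0.063, adjusted p = 0.28). For Slc6a20b the mean was 0.044 with knockout RNA in channel 1 and -0.34 with it in channel 2, so its sign depended on the orientation.

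Slc1a4 (ASCT1), a neutral amino acid exchanger, was the amino acid carrier above the pool in all mice, at 0.094, 0.0057, 0.10 and 0.16 and a mean of 0.090 (SE 0.047). That mean was made of 0.0070 with knockout RNA in channel 1 and 0.17 in channel 2. Slc1a1, the glutamate and aspartate carrier of the brush border, had -0.012, -0.078, 0.19 and 0.14, below 0 in mice 1 and 2 and above it in mice 3 and 4, and its 2 probes had means of opposite sign. Slc6a18, a brush-border carrier of glycine and other neutral amino acids, averaged 0.061 (SE 0.049), and Slc38a3 (SNAT3), the basolateral glutamine carrier, 0.087 (SE 0.050). Slc6a9 (GLYT1), a glycine carrier, spread most, from -0.29 in mouse 3 to 0.27 in mouse 4.

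The anion carriers were the largest class, with 20 measured members of 25 and a median of 0.030. Their mouse medians were 0.013, -0.0022, 0.050 and -0.0042. The class median was 0.082 on arrays with knockout RNA in channel 1 and -0.041 on those with it in channel 2, so its sign rested on the orientation. Within the class the lowest member was Slc17a3 and the 3 measured sodium-phosphate carriers all had positive means.

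Slc17a3 encodes NPT4, a carrier of urate and organic anions, and lies next to its paralog Slc17a1 (NPT1) in gene order on chromosome 13. The bases upstream of both are shown because the neighbours' means stood apart, a difference that was not itself tested, with Slc5a10 and Slc5a11 beside them as the sugar carriers with the highest means. Sequences are the 250 bases before the transcript start in RefSeq (GRCm38.p6), 5′ to 3′ on the gene's strand, and capitals mark GTTAA or TTAAC, 5 letters of the HNF1 motif searched on both strands, where overlapping matches run together. For Slc17a1 and Slc5a10 the first of 2 listed starts is shown.
Slc17a3 chr13:23839184-23839433 (plus strand): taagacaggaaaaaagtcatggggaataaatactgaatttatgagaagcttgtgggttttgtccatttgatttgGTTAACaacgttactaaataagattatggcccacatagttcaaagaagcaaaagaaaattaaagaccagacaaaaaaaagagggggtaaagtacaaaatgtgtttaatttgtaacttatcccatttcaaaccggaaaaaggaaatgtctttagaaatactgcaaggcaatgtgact
Slc17a1 chr13:23868768-23869017 (plus strand): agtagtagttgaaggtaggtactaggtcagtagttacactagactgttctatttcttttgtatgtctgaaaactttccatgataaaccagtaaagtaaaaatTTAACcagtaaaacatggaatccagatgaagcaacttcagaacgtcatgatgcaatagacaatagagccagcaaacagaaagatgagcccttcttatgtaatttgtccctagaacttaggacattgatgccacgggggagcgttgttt
Slc5a10 chr11:61720800-61721049 (minus strand): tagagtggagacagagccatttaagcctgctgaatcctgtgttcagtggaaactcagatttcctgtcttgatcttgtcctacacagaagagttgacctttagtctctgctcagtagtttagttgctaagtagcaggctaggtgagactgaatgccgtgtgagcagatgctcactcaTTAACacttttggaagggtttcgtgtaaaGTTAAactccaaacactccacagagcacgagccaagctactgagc
Slc5a11 chr7:123214616-123214865 (plus strand): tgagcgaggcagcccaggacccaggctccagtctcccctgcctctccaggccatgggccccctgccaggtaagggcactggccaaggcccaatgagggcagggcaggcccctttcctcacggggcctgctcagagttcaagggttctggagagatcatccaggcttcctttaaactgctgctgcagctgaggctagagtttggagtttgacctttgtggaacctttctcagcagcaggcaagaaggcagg
HNF1 transcription factors are known regulators of proximal tubule genes. The window of Slc17a3 held 2 matches that overlap in GTTAAC, those of Slc17a1 and Slc5a10 held 1 and 2, and that of Slc5a11 held none. Such matches were found in 7116 of 32851 promoter windows in the table (21.66%) and in 21 of 121 windows of 90 members (17.36%). A match says only that the letters are there, and no binding was measured.

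Between mice, 20 members had an unadjusted p under 0.05 (17.2%, against 13.6% of all genes), and 1 passed after adjustment. Slc17a3 stood below the pool on every array and differed between the 4 kidneys. On the arrays of mouse 1 its ratios were -0.022 and -0.14 with knockout RNA in channel 1 and -0.19 and -0.21 in channel 2, and on those of mouse 2 -0.10 and -0.24 and then -0.15 and -0.24. Mouse 3 had -0.32 and -0.32 in channel 1 and -0.80 and -0.79 in channel 2, and mouse 4 had -0.59 and -0.48 and then -0.82 and -0.50. Each array of mice 3 and 4 lay below each array of mice 1 and 2, and within mouse 3 the orientations stood well apart.

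The mouse means of Slc17a3 were -0.14, -0.19, -0.56 and -0.60, and their mean was -0.37 (SE 0.083, 1.29-fold lower, 95% interval -0.56 to -0.18), the lowest of the 116 members. It did not pass against the pool (adjusted p = 0.145, limma, Benjamini-Hochberg). It did differ between the 4 mice by limma's moderated F test at array level (adjusted p = 0.0189), as the single such member (0.862%, against 2.54% of all genes). That test takes arrays as independent and compares these 4 animals, not genotypes. Without mouse 1, 2 or 4 its adjusted p was 0.159, 0.0826 or 0.0695, without mouse 3 it was 0.0412, and without array 3 of mouse 3 and array 1 of mouse 4, whose values correlated at 0.62 across probes, 0.0905. Slc17a1, 1 place away, had 0.058, -0.045, -0.0018 and -0.10 and a mean of -0.022 (SE 0.047), on both sides of 0. Whether the deposited probes of these paralogs cross-hybridise was not tested.

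**Figure D2:**
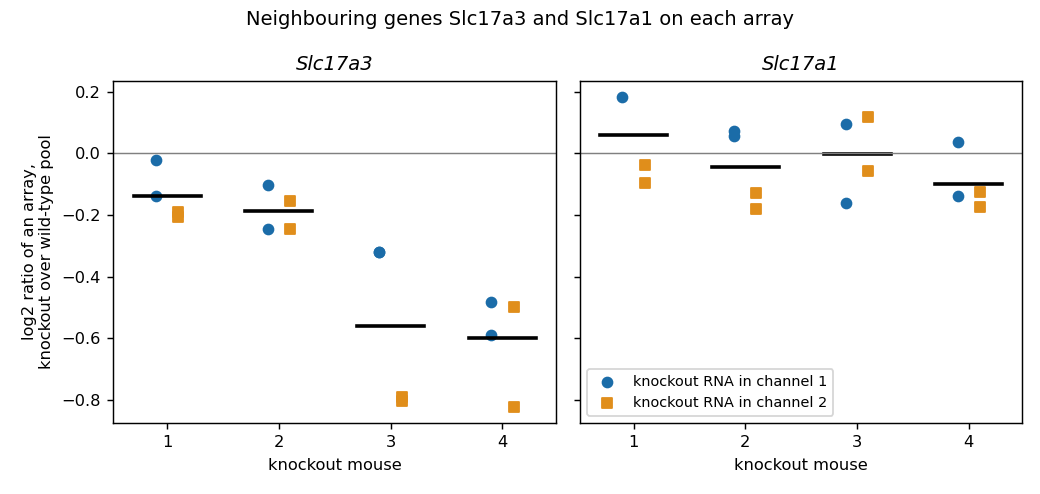
Log2 ratio of knockout over wild-type pool (y axis) of Slc17a3 and Slc17a1 on each array of the 4 knockout mice (x axis), by the channel of the knockout RNA; black bars are mouse means. All 16 points of Slc17a3 lie below 0, lower in mice 3 and 4, while those of Slc17a1 lie on both sides of it.

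Of the sodium-phosphate carriers, Slc34a3 (NaPi-IIc), a brush-border phosphate carrier, had 0.00057, 0.045, 0.32 and 0.21, near 0 in mice 1 and 2 and higher in mice 3 and 4, and a mean of 0.14 (SE 0.061, adjusted p = 0.286 in limma). Slc20a1 (PiT-1) had 0.14, 0.017, 0.18 and 0.15 and a mean of 0.12 (SE 0.048, adjusted p = 0.26), made of 0.24 with knockout RNA in channel 1 and 0.0018 in channel 2. Slc20a2 (PiT-2) averaged 0.045 (SE 0.051) with mice on both sides of 0. Slc34a3 and Slc20a1 were thus above the pool in every kidney without passing the threshold, and Slc20a2 was not.

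The SLC4 family, which includes bicarbonate and chloride exchangers, had 5 measured members with a median of 0.082. They ranged from -0.094 (Slc4a11, the negative 1) to 0.19 (Slc4a8). Slc4a2 (AE2), a widely expressed anion exchanger, and Slc4a9 (AE4), of intercalated cells of the collecting duct, were above the pool in all mice, at means of 0.11 (SE 0.053) and 0.082 (SE 0.048). Slc4a2 was near 0 in mouse 1 (0.0038) and Slc4a9 in mouse 2 (0.012). In mouse 3, 1 array of Slc4a2 stood at 0.94 and the others ran from -0.049 to 0.11. Slc4a8, a sodium-driven exchanger, spread most in the class, with -0.087, 0.14, 0.51 and 0.21, and averaged 0.19 (SE 0.085). Slc4a1 (AE1), the exchanger of red cells and of acid-secreting intercalated cells, averaged 0.034 and Slc26a4 (pendrin), of base-secreting intercalated cells, -0.070.

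None of the remaining measured anion carriers listed for the proximal tubule passed the threshold. Slc22a6 (OAT1), which takes up organic anions from the blood, had -0.037, -0.21, 0.042 and 0.13, and Slc22a7 (OAT2) had 0.034, -0.14, -0.15 and -0.18; their means were -0.017 (SE 0.060) and -0.11 (SE 0.051). The sign of Slc22a7 depended on the orientation, with 0.037 in channel 1 and -0.25 in channel 2. Slc22a12 (URAT1), the apical urate exchanger, averaged -0.0057 (SE 0.044). The sulfate carriers Slc13a1 (NaS1, brush border) and Slc26a1 (SAT1, basolateral) averaged 0.025 (SE 0.047) and -0.016 (SE 0.046). None of these 5 intervals left the band of -0.5 to 0.5.

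Metal carriers had 12 measured members of 18 and a median of -0.014, with mouse medians of -0.049, -0.021, 0.081 and -0.045; mouse 3 was the kidney above 0. None passed the adjusted threshold, and at an unadjusted p under 0.05 none stood above and 2 below the pool, both of the SLC39 (ZIP) family that brings zinc into the cytosol. Slc39a14 (ZIP14), which also carries iron and manganese, had -0.029, -0.20, -0.45 and -0.24, lowest in mouse 3 and near 0 in mouse 1. Its mean was -0.23 (SE 0.067, 1.17-fold lower, adjusted p = 0.177 in limma). Slc39a11 (ZIP11) had -0.13, -0.17, -0.39 and -0.18, below the pool in every kidney, and a mean of -0.22 (SE 0.055, adjusted p = 0.151).

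The 7 measured SLC39 genes had a median of -0.12 and the 3 measured SLC30 genes, which carry zinc out of the cytosol, -0.024, beside -0.0038 over all genes. Slc39a4 (ZIP4), the zinc importer of absorptive cells, spread most of the class, from -0.61 in mouse 2 to 0.16 in mouse 3, and mouse 2 rested on 2 arrays, at -1.11 and -0.10. Slc30a1 (ZnT1), the zinc exporter of the plasma membrane, averaged -0.12 (SE 0.062). Slc11a2 (DMT1), the proton-coupled iron carrier, averaged 0.047 (SE 0.063) and Slc31a1 (CTR1), the copper importer, 0.029 (SE 0.047).

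The mitochondrial SLC25 carriers had 16 measured members of 25 and a median of 0.011, with mouse medians of 0.064, 0.075, -0.095 and -0.0044. The kidneys of mice 1 and 2 lay above 0, mouse 3 below it and mouse 4 near it. Slc25a10, the dicarboxylate carrier that exchanges malate and succinate for phosphate, had 0.26, 0.11, 0.31 and 0.40, above the pool in all 4. Its mean was 0.27 (SE 0.056, 1.21-fold, adjusted p = 0.117 in limma), the highest of the 116 members and short of the threshold. Single arrays of mouse 4 ranged from -0.24 to 1.08, a wider range than that between mice.

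Slc25a37 (mitoferrin-1), which carries iron, was the SLC25 gene below the pool in all mice, at -0.022, -0.028, -0.28 and -0.11 and a mean of -0.11 (SE 0.055). That mean was made of -0.015 with knockout RNA in channel 1 and -0.20 in channel 2. Slc25a25, a calcium-regulated carrier of adenine nucleotides and phosphate, spread most, from -0.11 in mouse 2 to 0.47 in mouse 1. The ADP/ATP carriers Slc25a4 and Slc25a5 had -0.00072, 0.13, -0.15 and -0.23 for the first and 0.12, 0.10, -0.23 and -0.14 for the second. Slc25a13, an aspartate-glutamate carrier of the malate-aspartate shuttle, had 0.11, 0.11, -0.13 and -0.32. In all 3 genes mice 3 and 4 lay below the pool and below mice 1 and 2, but none passed limma's F test between mice after adjustment, with adjusted p of 0.103, 0.241 and 0.134. These 3 were picked out after their values were seen.

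**Figure D3:**
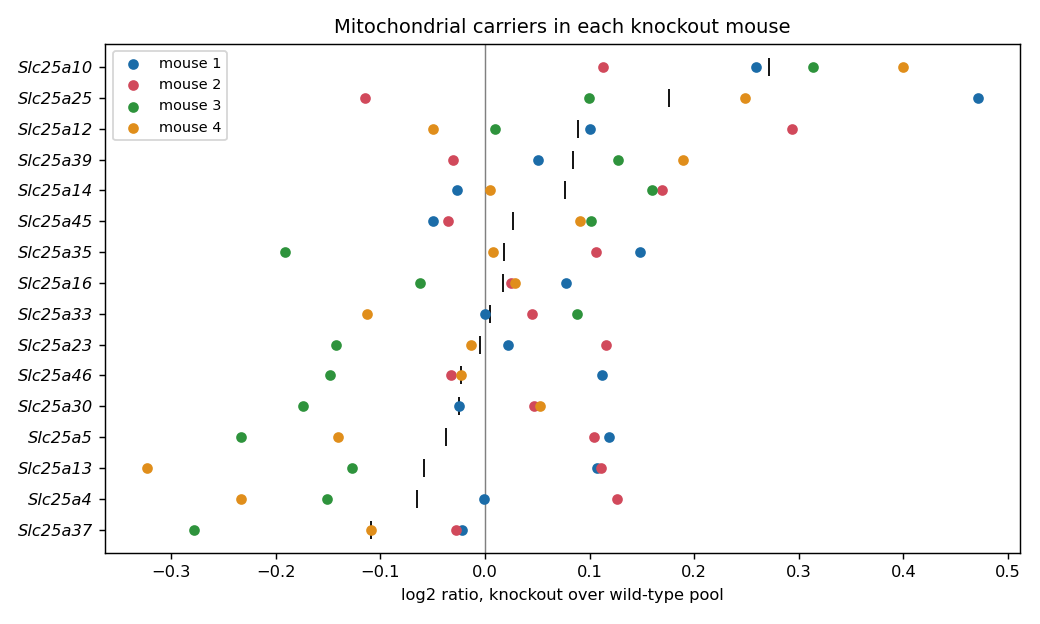
Log2 ratio of knockout over wild-type pool of the 16 measured SLC25 genes (x axis) in each of the 4 knockout mice, with a black tick at the mean. Slc25a10 (0.26, 0.11, 0.31 and 0.40) lies above 0 in every mouse, while Slc25a4, Slc25a5 and Slc25a13 lie below 0 in mice 3 and 4.

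The nucleotide sugar and sugar phosphate carriers (SLC35 and SLC37), which supply the endoplasmic reticulum and Golgi, had 14 measured members of 21 and the lowest class median among classes of at least 10 genes, -0.075, with mouse medians of -0.10, 0.010, -0.026 and 0.029. Slc35e3, whose substrate is not established, had 0.15, 0.12, 0.13 and 0.061, above the pool in all mice, and a mean of 0.11 (SE 0.044, adjusted p = 0.254 in limma). Slc35b4, a Golgi nucleotide sugar carrier, averaged -0.13 (SE 0.056), and Slc37a4, which carries glucose 6-phosphate into the endoplasmic reticulum for gluconeogenesis, -0.13 (SE 0.054); both were above 0 in mouse 2 and below it in the others. The class median was -0.025 without mouse 4, -0.040 without mouse 3 and -0.045 without mouse 1. It turned to 0.044 on arrays 1 and 2 of each mouse and to 0.060 over probes with a value on all 16 arrays.

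Of the cation exchangers 3 of 14 were measured. Slc9a8 (NHE8), a sodium-proton exchanger of the brush border, had -0.093, -0.13, -0.54 and -0.12, below the pool in all mice and lowest in mouse 3. Its mean was -0.22 (SE 0.077, adjusted p = 0.216 in limma). Slc9a3r1, which has a carrier's symbol but encodes the scaffold NHERF1 that anchors apical carriers, had 0.13, 0.062, 0.25 and 0.33 and a mean of 0.19 (SE 0.056, adjusted p = 0.174). All 4 kidneys lay above the pool, but the means were 0.31 with knockout RNA in channel 1 and 0.081 in channel 2.

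Among osmolyte, choline and transmitter carriers, with 7 of 11 measured and a median of 0.012, the creatine carrier Slc6a8 had 0.18, 0.074, 0.27 and 0.14. It was above the pool in every kidney, with a mean of 0.17 (SE 0.049, adjusted p = 0.178 in limma). The choline carrier Slc44a1 spread most of that class, from -0.11 in mouse 4 to 0.15 in mouse 1. Organic cation, carnitine and nucleoside carriers had 7 of 11 measured and a median of 0.038. The neighbouring carnitine carriers Slc22a5 (OCTN2) and Slc22a21 (OCTN3) on chromosome 11 averaged -0.084 (SE 0.057) and -0.12 (SE 0.071), both lower in mice 3 and 4 than in mouse 1. Slc22a18 averaged 0.16 (SE 0.066), from 0.31 and 0.30 in mice 3 and 4 against 0.028 in mouse 1.

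The other carriers, 9 of 12 measured, had a median of 0.031. Slc27a1 (FATP1), which promotes fatty acid uptake, had 0.069, 0.16, 0.20 and 0.15 and a mean of 0.15 (SE 0.046, adjusted p = 0.185 in limma). All 4 kidneys lay above the pool, but its mean was -0.014 with knockout RNA in channel 1 and 0.31 in channel 2. Slc46a1, the proton-coupled folate carrier, averaged 0.11 (SE 0.057), from -0.025 in mouse 2 to 0.27 in mouse 3.

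**Figure D4:**
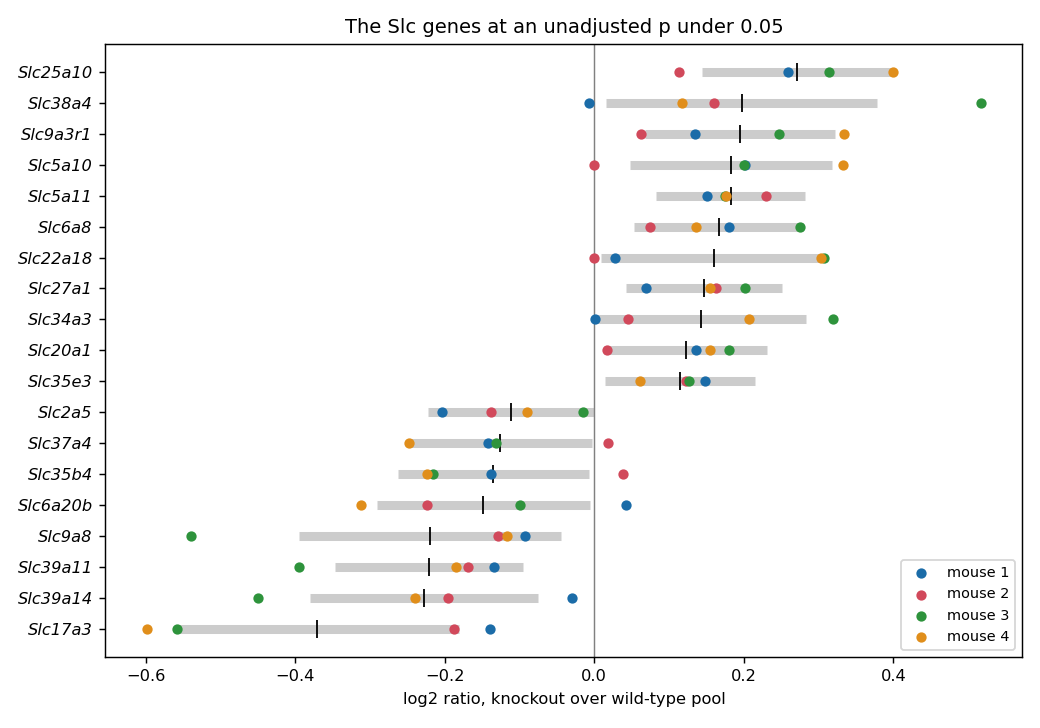
Log2 ratio of knockout over wild-type pool (x axis) of the 19 Slc genes at an unadjusted p under 0.05, with a point for each of the 4 knockout mice, a black tick at the mean and a grey band for its 95% confidence interval. They run from Slc17a3 (-0.37) to Slc25a10 (0.27), and none passed after adjustment over all genes.

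Between the 5 families the comparison was set for, the medians lay within a few hundredths of a log2 unit of each other, and families were compared by description only. The medians were 0.039 for sugar, 0.032 for amino acid, 0.030 for anion, -0.014 for metal and 0.011 for mitochondrial carriers, where the standard deviation of the mouse medians was 0.014, 0.052, 0.025, 0.061 and 0.078 respectively. Sugar was the class of these with its median above 0 in all 4 mice. Metal and mitochondrial carriers lay on opposite sides of 0 in mice 1, 2 and 3. Leaving out 1 mouse at a time kept the sugar, amino acid and anion medians above 0, while that of the metal carriers turned to 0.0034 without mouse 2 and that of the mitochondrial carriers to -0.0080 and -0.0099 without mouse 1 and mouse 2. Of these medians that of the sugar carriers stayed above 0 under every alternative run, and the other families each changed sign under at least 1 choice of channel, arrays or probes.

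**Figure D5:**
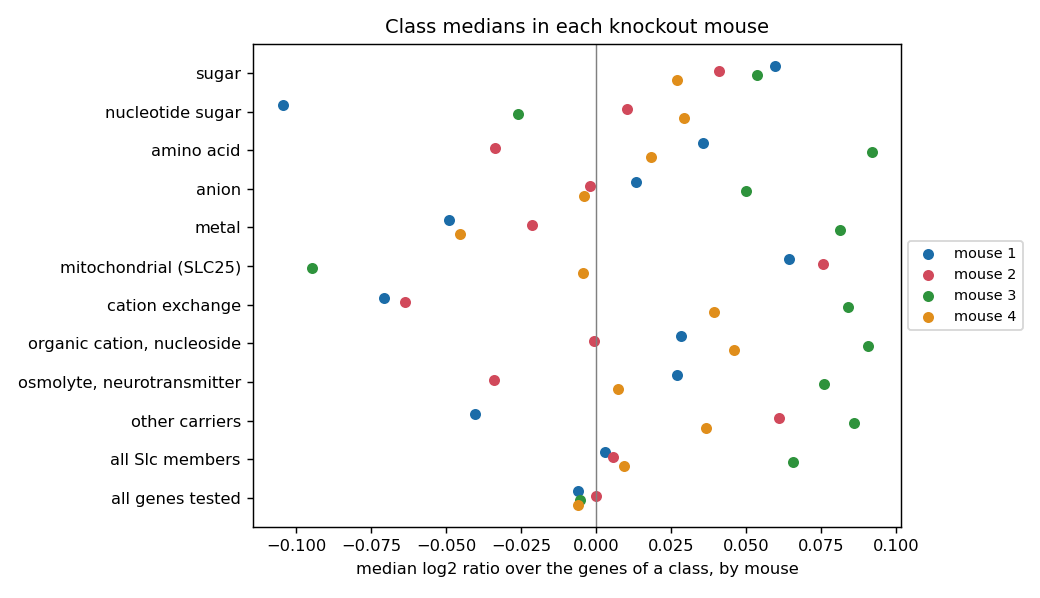
Median log2 ratio of knockout over wild-type pool (x axis) over the measured genes of each class, with a point for each of the 4 knockout mice. The sugar class lies above 0 in every mouse, and the mitochondrial class runs from -0.095 in mouse 3 to 0.075 in mouse 2.

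By place along the nephron, 10 of 24 listed brush-border carriers of the proximal tubule were measured, with a median of 0.035 and a range of -0.15 to 0.14. For the basolateral carriers 4 of 9 were measured with a median of -0.016, and for the collecting duct 4 of 7 with a median of 0.058. None of the 4 carriers listed for the thick ascending limb and distal tubule was measured. Of marker genes that are no carriers, 8 of 12 for the proximal tubule were measured, with mouse medians of 0.030, 0.013, 0.15 and 0.11, and 4 of 10 for the collecting duct, with 0.012, 0.040, 0.24 and 0.19. By their medians both marker lists stood higher in mice 3 and 4 than in mice 1 and 2. Within the lists Kap, Lrp2 and Atp6v1g3 stood lower in mice 3 and 4 instead. Cubn, Aqp1, Miox and Hsd11b2 did not separate mice 3 and 4 from mice 1 and 2. The 10 measured brush-border carriers had mouse medians of 0.050, -0.0020, 0.069 and -0.066, lowest in mouse 4. What part the marked cell types had in the carriers' ratios was not tested.

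Of the other marker lists, fibroblast and smooth muscle (8 of 9 measured) had a median of -0.095, endothelium (4 of 8) -0.11 and leukocytes (4 of 8) 0.071. Thin coverage left 2 of 8 markers of the loop of Henle and distal tubule at a median of -0.10, 2 of 7 of adipose tissue at -0.14, 2 of 6 of the adrenal cortex at 0.016, 1 of 5 of podocytes at -0.19 and 1 of 6 of erythroid cells at 0.072. No gene of these lists passed the adjusted threshold against the pool. Between mice, Umod (adjusted p = 0.0125), Fabp4 (0.0108) and Col1a1 (0.0420) passed limma's moderated F test, as did Acy3 of the proximal tubule list (0.0414). Over all genes 2.54% did. Umod, of the loop of Henle list, had -0.14, -0.33, 0.19 and 0.27 in mice 1 to 4. Ppp1r1a, the other measured marker of that list, went the other way, with -0.13, -0.094, -0.39 and -0.17.

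Mouse 3 stood apart at a marker of another organ. Svs5, the measured 1 of 7 markers of the seminal vesicle, had 0.21, -0.092, 4.94 and 1.09 in mice 1 to 4, far above the pool in mouse 3, above it in mouse 4 and near it in the others, and its part in the carriers' ratios was not tested. The median over all 116 members was 0.0029, 0.0057, 0.066 and 0.0093, highest in mouse 3. Members also lay farther from 0 in mice 3 and 4, with median absolute ratios of 0.080, 0.064, 0.12 and 0.11, much as all genes did (0.071, 0.061, 0.12 and 0.096).

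Other membrane transport genes were measured in the same fit. Of 3 organic anion transporters of the Slco family, Slco1a6 fell, at -0.28, -0.46, -0.48 and -0.33 in mice 1 to 4 and a mean of -0.39 (SE 0.051, adjusted p = 0.0298 in limma), below the lowest of the 116 members. The others did not pass. Of 14 measured genes with an ABC symbol, not all of which encode transporters (Abcf1 and Abcf3), none did, with a median of 0.020. The sodium-potassium ATPase drives sodium-coupled uptake. Its 3 measured genes were Atp1b1 (-0.10), Atp1b3 (-0.15) and Fxyd2 (0.083), and none passed. No catalytic subunit was among them, so these values do not describe the whole pump.

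The 71 symbols without a usable measurement had blank cells in at least 1 orientation of 1 mouse in each probe, and Slc35f6 had no value on any array. They include the amino acid carrier Slc7a5, the glucose carrier Slc2a4 and the phosphate carrier of mitochondria, Slc25a3, for which nothing can be said here. Of the measured members 13 had 2 probes, whose means differed by a median of 0.061 and at most by 0.24 (Slc35b4), with opposite signs for Slc1a1, Slc25a23, Slc29a3 and Slc39a7. Averaging the probes on each array before asking for a value in both orientations brought in 4 further genes, Slc22a16, Slc25a44, Slc27a4 and Slc4a1ap, at 0.18, 0.066, 0.059 and 0.013, and none of them passed the threshold.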

How the data were processed

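Kidney RNA of 4 knockout mice was compared with 1 wild-type pool on 16 two-colour spotted cDNA arrays, scanned with a GenePix 4000A and quantified by GenePix Pro 3.0 (per the labels). The authors deposited 1 log2 ratio per probe and array, made from background-subtracted mean intensities scaled to a median ratio of 1, per the labels. Base 2 was inferred: 45.6% of 720 distances between repeated values matched log2 of small fractions, against 0.0% for natural and decimal logarithms. The filter behind blank cells and the dye of each channel are not given in the sources used here.

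Between 50.2% and 91.1% of the 20205 probes carried a value on an array. Probes were named through the platform annotation: 11723 had 1 symbol, 806 several and 7676 none, and probes with several were not used. Ratios were turned to knockout over wild type as channel 1 over channel 2, centred on each array's median, and averaged within orientation and mouse. A probe needed a value in both orientations of every mouse (10804 probes), and probes of a gene were averaged. Two-sided tests of each mean ratio used limma 3.58.1 (lmFit, eBayes) under R 4.3.3, and differences between mice by limma's moderated F test on arrays with a term for the channel, both with Benjamini-Hochberg adjustment over 6191 genes and a threshold of 0.05. Arrays of one mouse are technical replicates. Arrays with the knockout RNA in the same channel correlated, as deposited, at r of -0.01 to 0.62 across probes (56 pairs), and arrays in opposite channels at -0.26 to 0.20 (64 pairs). Both tests were tested on simulated data with independent noise and a mouse effect. Those data held no channel effect and no error of a shared pool, so the simulation does not cover them.

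Members, families and lists were chosen with earlier results of these data known. Classes were set by symbol, and Slc22a21 was moved from the anion to the carnitine carriers after its values were seen. Genes named are those past a threshold, up to 3 highest and 3 lowest of each class with the same sign in all mice, the member of each class with the largest spread between mice, and the measured members of the nephron lists. Others, among them Slc5a10, Slc38a4, Slc35b4, Slc37a4, Slc22a18 and further SLC25 and metal carriers, were named after their values were seen. Alternatives were single orientations, array pairs, centring, scaling, the probe filter, the probe summary, each mouse left out, robust variances and the arrays with the mouse as a random block. Added after seeing the data were averaging the probes first and leaving out the most correlated array pair.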

Additional observations from a re-analysis of the deposited data

Results flagged for a closer look

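Of 53 sets of 4 mouse values examined (42 named genes and 11 class or overall medians), 4 had 1 mouse far from the other 3 by Dixon's criterion. Chance meets it in about 1 of 20 sets that were not chosen by their values. That rate does not hold for the named genes, many of which were chosen by their mouse values. Slc9a8, Slc35c1 and Slc2a8 were each named for the widest spread of their class. Slc9a8, the sodium-proton exchanger NHE8, had -0.54 in mouse 3, whereas the others ran from -0.13 to -0.093. Slc35c1, the GDP-fucose carrier of the Golgi, had -0.22 in mouse 1 against 0.13 to 0.16 elsewhere. Slc2a8, an intracellular glucose carrier, stood at -0.38 in mouse 1, where single arrays ran from -1.26 to 0.26. The median over all 116 members was 0.066 in mouse 3 and between 0.0029 and 0.0093 in the others.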

How the results depend on the processing

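No member passed against the pool in any fit with the mouse as the unit. With 16 arrays and the mouse as a random block, whose estimated correlation was 0.014, 10 members passed (Slc17a3, Slc25a10, Slc35e3, Slc39a11, Slc39a14, Slc5a10, Slc5a11, Slc6a8, Slc9a3r1 and Slc9a8), where 7.54% of all genes did. Members at an unadjusted p under 0.05 then numbered 29 (23.8% of all genes), and otherwise 30 of 142 with knockout RNA in channel 1 alone (17.05% of all genes), 9 of 84 on arrays 1 and 2 (14.7%), 9 of 49 with probes measured on all arrays (23.8%), and 11 to 22 with a mouse left out (9.24% to 18.5%, both fewest without mouse 4). Members with the same sign in all mice, 18 as reported (25.7% of all genes), numbered 39 of 142 in channel 1 (27.4% of all genes), 34 of 127 in channel 2 (28.01%), 5 of 49 with probes measured on all arrays (31.6%), 28 of 154 with any value per mouse (23.6%), and 25 to 40 over 3 mice (33.2% to 42.5%), where fewer mice make this easier to meet. Members differing between mice, 1 as reported, numbered 0 on arrays 1 and 2, on arrays 3 and 4, after scaling arrays to one spread and without the correlated array pair, 2 with probes measured on all arrays (Slc17a3 and Slc25a4), 2 with any value per mouse and 2 with probes averaged first (Slc17a3 and Slc9a8), and 0 to 1 with a mouse left out. The anion median was 0.082 in channel 1, -0.041 in channel 2, 0.057 on arrays 1 and 2, -0.041 on arrays 3 and 4 and -0.011 with probes measured on all arrays. The sugar median was 0.057 in channel 2, 0.0030 on arrays 1 and 2, 0.093 on arrays 3 and 4 and 0.016 without the correlated pair, and the amino acid median -0.055 on arrays 3 and 4. Smaller moves also turned a sign: the amino acid median was -0.0083 in channel 2 and -0.0026 both with probes measured on all arrays and with the probe of most values, the metal median 0.025 in channel 1 and 0.027 on arrays 1 and 2, and the mitochondrial median -0.0022 on arrays 1 and 2, -0.010 on arrays 3 and 4 and -0.024 with probes measured on all arrays. With knockout RNA in either channel alone, 8 of 42 named genes changed sign. The causes were not tested. No paired analysis was possible because the labels give a single group of knockout mice and 1 pool.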
